A study of Mus musculus with 21 samples.

Results

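Binding of the glucocorticoid receptor (GR) to liver chromatin was compared between mice kept in low oxygen for 24 h and for 6 h, all of which had received dexamethasone (DEX), a synthetic glucocorticoid. The comparison rests on 6 of the 21 samples of the series, 3 chromatin immunoprecipitation sequencing (ChIP-seq) libraries for each duration, taken by their titles. Both groups were C57BL/6J mice held at 7% oxygen, given 10 mg/kg DEX by intraperitoneal injection, returned to 7% oxygen and sampled 2 h after the injection, so they shared the strain, hypoxia and DEX and differed in the hours of hypoxia. Further groups of 3 libraries each are used below for reference only: DEX at normal oxygen (21%), and hypoxia of 6 h or of 24 h with an injection of phosphate-buffered saline (PBS) in place of DEX. The design text calls the libraries biological replicates. The ages and sexes of the mice, and whether animals were pooled, are not given in the sources used here.

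Peaks of the 6 lists that shared at least 1 bp were merged, which gave 2750 sites. Of these, 943 were called in all 6 lists and were compared by their normalized tag count, the authors' number of sequenced tags in a peak scaled to a library of 10000000 tags. The other sites could be compared by detection only, because a list gives no value below its threshold.

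GR is a nuclear receptor that stays in the cytoplasm with chaperones until it binds a glucocorticoid, then moves into the nucleus and binds DNA, often as a dimer on an inverted repeat, the glucocorticoid response element. In the liver it is known for driving gluconeogenesis and amino acid breakdown and for restraining inflammation, with C/EBP and HNF4 factors at many of the same enhancers. Low oxygen stabilizes the hypoxia-inducible factors, which bind a different short DNA core.

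The 6 h libraries held 5772670 to 11441406 tags and the 24 h libraries 8849180 to 12642344. Lists held 1235 to 2287 peaks, 1717 ± 391 at 6 h and 1631 ± 572 at 24 h (mean ± SD, n = 3 each), and the difference was within the spread between libraries (exact two-sided permutation test, p = 0.6, where 0.1 is the smallest p that 3 libraries against 3 can give). The share of tags in peaks was 2.58% ± 0.615 at 6 h and 2.10% ± 0.694 at 24 h (SD, n = 3; exact permutation p = 0.5). Median tags at the 943 sites were 135.5, 200.9 and 113.2 in the 6 h libraries and 89.7, 139.0 and 141.6 in the 24 h libraries. The highest of these medians belonged to the shallowest library, 6 h replicate 2, and the groups overlapped (exact permutation p = 0.6). At a site with the median level, counting error alone gave a coefficient of variation of 7.47% to 9.76%.

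Among the sites whose tags or detection differed, 2 lay over the 250 bases before the known start of a protein-coding gene: 1 at Shld1, which passed the test as lower at 24 h, and 1 at Bhmt, called in the 24 h lists only. Their promoter windows are shown with those of Mt1, Map3k6 and Slc10a6, the promoters with a site in all 6 lists and a relaxed response element. Sequences are from RefSeq (GRCm38.p6, the assembly of mm10), read 5′ to 3′ on the strand of the gene and ending just before its start. The windows are chr2:132689907-132690156 on the plus strand for Shld1, chr13:93637759-93638008 on the minus strand for Bhmt, chr8:94178839-94179088 on the plus strand for Mt1, chr4:133240568-133240817 on the plus strand for Map3k6 and chr5:103629404-103629653 on the minus strand for Slc10a6. Capitals mark a relaxed response element (GNACANNNTGTNC) or its half-site (AGAACA) on either strand.
Shld1: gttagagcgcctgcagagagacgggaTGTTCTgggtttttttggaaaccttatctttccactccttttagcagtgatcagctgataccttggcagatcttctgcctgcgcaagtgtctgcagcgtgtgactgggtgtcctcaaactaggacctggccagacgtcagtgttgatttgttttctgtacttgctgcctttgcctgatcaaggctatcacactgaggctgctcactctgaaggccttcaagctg
Bhmt: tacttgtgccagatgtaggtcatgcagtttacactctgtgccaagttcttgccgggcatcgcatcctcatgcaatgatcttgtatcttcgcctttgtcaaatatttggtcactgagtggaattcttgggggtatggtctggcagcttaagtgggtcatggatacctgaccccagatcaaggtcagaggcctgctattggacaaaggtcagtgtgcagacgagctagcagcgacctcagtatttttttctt
Mt1: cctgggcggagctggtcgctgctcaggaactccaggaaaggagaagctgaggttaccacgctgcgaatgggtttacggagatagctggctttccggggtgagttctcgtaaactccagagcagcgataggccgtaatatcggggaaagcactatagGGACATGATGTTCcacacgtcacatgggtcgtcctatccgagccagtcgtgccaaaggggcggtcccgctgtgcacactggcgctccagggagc
Map3k6: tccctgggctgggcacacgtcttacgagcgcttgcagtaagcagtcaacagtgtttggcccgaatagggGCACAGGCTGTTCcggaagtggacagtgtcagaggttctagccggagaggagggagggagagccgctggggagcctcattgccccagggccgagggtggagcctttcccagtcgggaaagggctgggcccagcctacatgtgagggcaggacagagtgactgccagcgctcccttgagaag
Slc10a6: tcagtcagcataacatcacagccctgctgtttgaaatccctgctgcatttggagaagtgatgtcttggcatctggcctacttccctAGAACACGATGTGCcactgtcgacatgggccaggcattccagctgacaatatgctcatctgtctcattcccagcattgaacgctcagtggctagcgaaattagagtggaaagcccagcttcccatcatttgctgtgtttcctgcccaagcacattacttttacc
The Shld1 window held 1 half-site and no relaxed element, and the Bhmt window held neither. Mt1 encodes a metallothionein, and its window held the element GGACATGATGTTC beginning 94 bases before the start. Map3k6, a kinase of the stress-activated cascade, held GCACAGGCTGTTC, and Slc10a6, a carrier of sulfated steroids, held GAACACGATGTGC, in which the half-site overlaps the relaxed element. Over all 21263 promoter windows of this length, 0.357% held the relaxed element, 13.7% the half-site and 17.8% the hypoxia response core ACGTG, while the full element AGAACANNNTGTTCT occurred in 2. Of the 23 windows overlapped by a site in all 6 lists, 3 held the relaxed element, 5 the half-site, 2 the hypoxia response core and none the full element. The tag differences at the Mt1, Map3k6 and Slc10a6 promoters were -0.29 ± 0.14, -0.33 ± 0.17 and -0.04 ± 0.14 (log2, 24 h minus 6 h ± SE, libraries centred), none past the limma threshold of an adjusted p of 0.05.

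Detection separated few sites by the duration of hypoxia. Of the 2750 sites, 1910 were called in at least 1 list of each duration, 417 in 6 h lists only and 423 in 24 h lists only, and 670 were called in exactly 1 list. Sites called in 1 list had a median of 52.2 normalized tags and those in all 6 lists a median of 137. Only 25 sites (0.909% of all sites) were called in all 3 lists of 6 h and none of 24 h, and 10 (0.364%) the other way round. Fisher's exact test on 3 lists against 3 cannot go below p = 0.1, so no single site could pass a test. Of the 25 sites, 23 were also called in at least 1 list of DEX at normal oxygen, and of the 10 sites, 9 were. The share over all 2750 sites was not computed, so these counts cannot be called high or low. Of the 943 sites in all 6 lists, 934 were called in all 3 lists of DEX at normal oxygen.

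**Figure D1:**
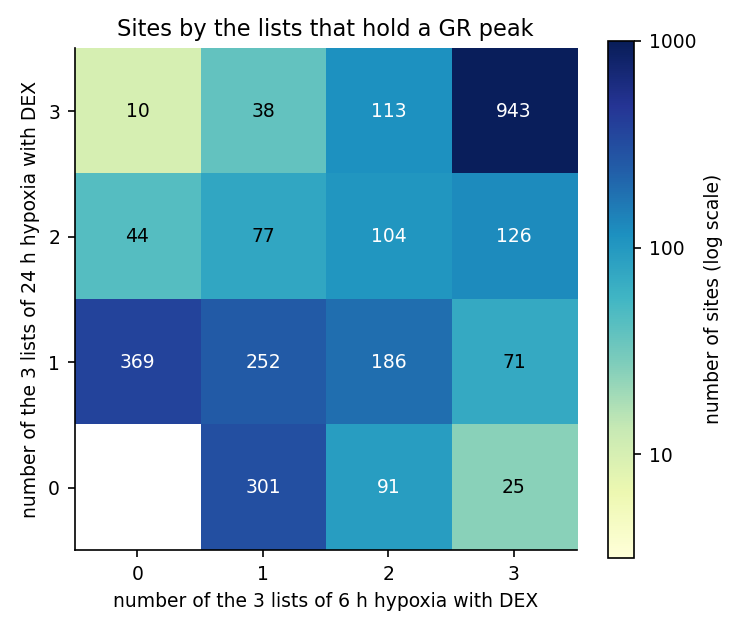
Number of sites by how many of the 3 lists of 6 h hypoxia with DEX (x axis) and of the 3 lists of 24 h hypoxia with DEX (y axis) hold a peak, with color on a log scale. The 943 sites in all 6 lists form the largest cell, and the corners with 25 and 10 sites are those called at 1 duration only.

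The strongest site called at 6 h only lay in Acot11, which encodes an acyl-CoA thioesterase of fat metabolism (chr4:106749836-106750037). It held 139.8, 259.8 and 217.9 tags in the 6 h libraries and no peak in the 24 h lists, and 75.9, 74.4 and 175.7 tags with DEX at normal oxygen. Its lowest 6 h value stood well above 57.6, the smallest tag count that the strictest 24 h list contains. Next came a site 85054 bp past Cebpb, the gene of a C/EBP transcription factor of the acute phase and of gluconeogenesis (chr2:167775378-167775594), with 79.5, 171.5 and 123.7 tags. A site 21233 bp from Pparg, which encodes a lipid-sensing nuclear receptor (chr6:115511537-115511738), had 104.9, 145.5 and 101.8 tags. In each of these the 6 h replicate 2 library was the highest.

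St3gal3, a sialyltransferase gene, carried an internal site with 101.4, 159.4 and 84.7 tags. Sites near Sdc1 (syndecan-1, a cell surface proteoglycan; 35520 bp away), Sdsl (an enzyme related to serine dehydratase; 151 bp) and Fads2 (a fatty acid desaturase; 20933 bp) averaged 103.6 ± 54.7, 102.6 ± 44.7 and 98.2 ± 66.6 tags (SD, n = 3). The sites at Ell (a transcription elongation factor), Pomgnt2 (a glycosyltransferase) and Gng7 (a G protein subunit) averaged 95.9 ± 40.0, 91.2 ± 32.5 and 88.4 ± 54.0 tags. The Gng7 site, like a weaker one in Nnmt, had no peak with DEX at normal oxygen either. Over the 25 sites the mean at 6 h ran from 68.3 to 206 tags with a median of 84.0, and all 25 means exceeded 57.6 tags. In 16 of them all 3 libraries did. Of the 25 sites, 12 lay inside a gene, 5 within 1 kb of a gene start and 8 overlapped a peak of a PBS list. The site near Sdsl counted among the 5 through an end of a gene with no known start. Among the 943 sites in all 6 lists, these shares were 53.0%, 8.48% and 73.4%. Those 943 sites held more tags, with a median of 137, and the shares over all merged sites are not given here. The counts of 12, 5 and 8 sites can therefore not be called high or low.

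Sites called at 24 h only had few tags, apart from 1 on the mitochondrial genome. That site (mitochondrial positions 15455 to 15697, 288 bp past the cytochrome b gene) held 954.6, 1671.3 and 1370 tags at 24 h and was absent from the lists of DEX at 6 h and at normal oxygen. It was present in all 6 PBS lists, with 2241.6, 1527.6 and 1508 tags at 6 h and 2566.4, 3009.3 and 3918.4 at 24 h. Its lowest fold over input in the 24 h lists was 4.35, close to the 4-fold that the peak calling required. The other sites called at 24 h only had lowest values of 12.63 to 114.6. Mitochondrial DNA is not nuclear chromatin, and its copy number and recovery were not measured here. A second mitochondrial site (15826 to 16014) was called in 1 of the 6 DEX lists, 24 h replicate 2, with 948.1 tags and a fold over input of 4.9. It was also called in the 3 lists of 24 h with PBS, with 1036.5, 1049.1 and 1460.6 tags.

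The remaining 9 sites called at 24 h only averaged at most 68.7 tags, under 83.2, the smallest tag count in the strictest 6 h list, that of replicate 2. Zbtb16, which encodes the zinc finger repressor PLZF and is a known glucocorticoid target, held such a site inside the gene (chr9:48746598-48746817) with 67.5, 68.9 and 69.6 tags, the tightest of the 10. Bhmt, the betaine-dependent enzyme that remethylates homocysteine in liver, had 51.3, 71.2 and 79.9 tags at its promoter (chr13:93637777-93638035). The 3 libraries of DEX at normal oxygen also held peaks at both, with 95.6, 73.5 and 63.5 tags at Zbtb16 and 78.9, 54.4 and 48.0 at Bhmt. The other sites lay near or in Acsl1 (long-chain acyl-CoA synthetase), Ezr (the membrane linker ezrin), Amotl2 (angiomotin-like 2), Tns1 (tensin 1), Aacs (acetoacetyl-CoA synthetase), Rock2 (a kinase of the actin cytoskeleton) and Slc6a9 (a glycine transporter), with means of 65.0, 61.2, 60.9, 59.9, 55.8, 53.3 and 53.2 tags. When each list was held to its 1235 highest scoring peaks, 26 sites were called at 6 h only and 24 at 24 h only, and at a common threshold of 83.2 tags the counts were 31 and 5.

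Most of the 943 shared sites differed little between the durations relative to the typical shared site. Each library was centred on its median over these sites, and log2 tags were fitted with limma. The median log2 difference was 0.02, which the centring sets near 0, and 50% of sites lay between -0.16 and 0.18. Of the 943 sites, 24 (2.55%) were lower at 24 h and 6 (0.636%) were higher at an adjusted p below 0.05, and 189 had an unadjusted p below 0.05 (102 lower, 87 higher). edgeR with TMM scaling on the tags of the same peaks called 30 lower (3.18%) and 8 higher (0.848%), and shared 28 of the 30 sites that limma called. Without centring the median difference was -0.25 and limma called 5 sites lower and 0 higher, and edgeR without TMM called 1 lower and 0 higher. These calls are therefore relative to the typical shared site. In liver tissue, binding in fewer cells and less binding per cell cannot be told apart.

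**Figure D2:**
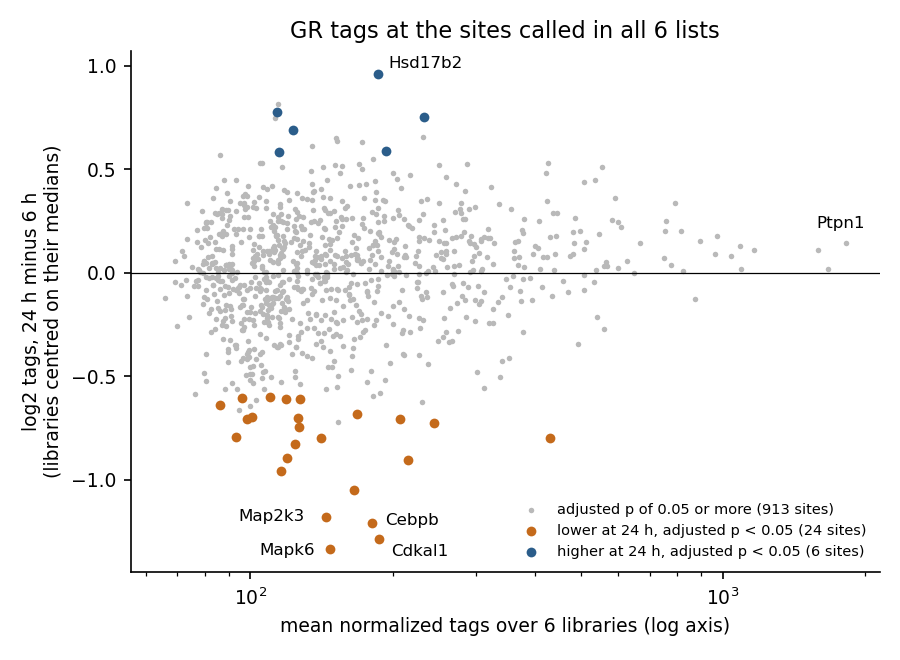
Difference in log2 normalized tags between 24 h and 6 h (y axis, libraries centred on their medians) against the mean normalized tags of the 6 libraries (x axis, log scale) at the 943 shared sites, 1 point a site. The 24 sites lower at 24 h reach -1.33, the 6 higher sites reach 0.96, and the strongest site, nearest to Ptpn1, lies at 0.14.

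The counts depended on single libraries. Without 6 h replicate 3 or without 24 h replicate 2, limma called 5 sites lower and 0 higher. Without 6 h replicate 2, the shallow library with the highest medians, it called 39 lower and 11 higher. Leaving out 24 h replicate 1 gave 13 lower and 1 higher, 24 h replicate 3 gave 9 and 3, and 6 h replicate 1 gave 16 and 7. The sites next to Mapk6, in Cdkal1, near Cebpb and in Map2k3 passed in the most settings.

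The largest difference was at a site 1337 bp from Mapk6, which encodes the atypical MAP kinase ERK3 (chr9:75385345-75385546). It held 173.1, 358.6 and 144.6 tags at 6 h and 67.5, 79.1 and 60.1 at 24 h. Every 6 h library was above every 24 h library, and the lowest 6 h value stood clear of the highest 24 h value. The difference was -1.33 ± 0.20 on the log2 scale (SE; limma adjusted p = 0.0046), and it passed the threshold in 24 of 24 alternative settings. With DEX at normal oxygen the site held 170.7, 193.8 and 118.4 tags.

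Cdkal1, whose enzyme modifies transfer RNA, carried a site inside the gene (chr13:29576241-29576438) with 292.8, 318.7 and 215.0 tags at 6 h and 55.5, 111.9 and 127.3 at 24 h. The groups did not overlap, and the difference was -1.29 ± 0.17 (log2, SE; limma adjusted p = 0.0014), past the threshold in 23 of 24 alternatives. No PBS list held a peak there. Normal oxygen with DEX gave 283.0, 367.5 and 411.0 tags. Map2k3, the kinase MKK3 that activates p38, carried 2 sites within the gene that were both lower. The first (chr11:60935223-60935434) had 173.1, 277.2 and 184.6 tags at 6 h and 62.4, 73.5 and 94.9 at 24 h, a difference of -1.18 ± 0.16 (limma adjusted p = 0.0014), called in 23 of 24 alternatives. The second (chr11:60933853-60934075) had 111.0, 175.0 and 112.3 tags against 48.7, 92.7 and 64.9, a difference of -0.70 ± 0.16 (limma adjusted p = 0.037), and was called in 11 of 23. At both sites every 6 h library exceeded every 24 h library.

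A further lower site, 7055 bp from Mobp, a myelin protein gene, averaged 234 ± 49.9 tags at 6 h and 96.9 ± 35.8 at 24 h (SD, n = 3), a log2 difference of -1.05. Capzb, the beta subunit of the actin capping protein, had 159.9, 161.1 and 167.5 tags against 68.4, 70.1 and 70.4. These libraries agreed closely within each duration, but the difference of -0.96 ± 0.22 (limma adjusted p = 0.037) passed in 11 of 23 alternatives. Khk, ketohexokinase, the first enzyme of fructose breakdown, had 169.6, 200.9 and 124.6 tags against 63.2, 96.1 and 62.5 at a site inside the gene (chr5:30925150-30925350), a difference of -0.89 ± 0.18 (limma adjusted p = 0.022). The groups did not overlap there. The nearest gene to a site of chromosome 8 with -0.91 was Maf, a bZIP transcription factor gene 276575 bp away.

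At the Shld1 promoter, whose sequence is given above, the site (chr2:132689809-132690029) held 183.5, 275.4 and 118.0 tags at 6 h and 59.0, 102.8 and 106.8 at 24 h. Shld1 encodes a subunit of shieldin, a complex of DNA break repair. The lowest 6 h library was above the highest 24 h library by a small margin, and the difference was -0.80 ± 0.15 (log2, SE; limma adjusted p = 0.019), past the threshold in 19 of 24 alternatives. The site in Cdk17, a cyclin-dependent kinase gene (chr10:93198438-93198697), was the strongest of the lower sites. It held 605.7, 753.6 and 393.0 tags against 200.0, 264.4 and 370.2, a difference of -0.80 ± 0.16 (limma adjusted p = 0.022), with 635.7, 1013.7 and 1254.8 at normal oxygen. In Stk4, which encodes the Hippo pathway kinase MST1, the difference was -0.79 ± 0.16 (limma adjusted p = 0.022), and the site had no peak in a PBS list.

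The other lower sites ranged from -0.75 in Il15ra, the alpha chain of the interleukin-15 receptor, to -0.60 in Celsr1, a cadherin of planar polarity. They included sites in Ntrk2 (a neurotrophin receptor, -0.72), Slc47a1 (the MATE1 exporter of organic cations, -0.61), Sdr42e1 (a short-chain dehydrogenase, -0.70), Wbp1l (-0.68), Znfx1 (-0.64) and D630003M21Rik (-0.60), and sites near Cryaa (a lens crystallin, -0.71) and Gm5108 (-0.71). Each value is for a site and not for the gene. Another shared site in Il15ra, Sdr42e1 and Wbp1l differed by 0.04, -0.08 and 0.29, and none of these passed. Of all 24 lower sites, the tags of the 2 durations did not overlap in 23, the exception being Il15ra, and after centring in all 24. The sites were selected on these same tags, so this describes them and is no further support. Of the 943 sites, 12% were non-overlapping in this direction before centring and 11.5% after it. All 30 called sites were also called in the 3 lists of DEX at normal oxygen, as were 934 of the 943 sites tested.

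The 6 higher sites differed by less, from 0.58 to 0.96, and their uncentred tags overlapped between the durations in all 6, and 0% of the 943 sites were non-overlapping in this direction before centring. The largest was inside Hsd17b2, which encodes a hydroxysteroid dehydrogenase that inactivates estradiol and testosterone (chr8:117725728-117725933). It had 198.4, 142.0 and 93.2 tags at 6 h and 165.8, 278.0 and 239.7 at 24 h, a difference of 0.96 ± 0.22 (log2, SE; limma adjusted p = 0.037), and passed in 9 of 24 alternatives. One 6 h library lay above the lowest 24 h library. Nek7, a kinase of mitosis and of the NLRP3 inflammasome, had 185.3, 273.7 and 137.0 tags against 243.6, 281.4 and 278.4, a difference of 0.75 ± 0.16 (limma adjusted p = 0.022). A site near Lrrc74a differed by 0.78 ± 0.15 (limma adjusted p = 0.022), and both of these passed in 15 or 16 alternatives.

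A site 10205 bp from Ahcy, the enzyme that clears S-adenosylhomocysteine, had 169.6, 225.2 and 121.8 tags at 6 h and 151.3, 274.6 and 217.5 at 24 h. It differed by 0.59 ± 0.14 after centring (limma adjusted p = 0.046). The others lay in Nedd4l, a ubiquitin ligase gene (0.69), and 381 bp from Ripk4, a receptor-interacting kinase gene (0.58). edgeR did not call these last sites (adjusted p 0.053 and 0.056). Another shared site in Nedd4l (chr18:65069544-65069760) went the other way, by -0.41 ± 0.15, and did not pass (limma adjusted p = 0.15). Other sites with non-overlapping centred libraries, in Washc2 and Sec31a and near Gm5148 and Adgrf1, had differences of 0.51 to 0.53 and limma adjusted p-values of 0.054 to 0.068, which did not pass. After centring, 13.8% of the 943 sites did not overlap in the higher direction.

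**Figure D3:**
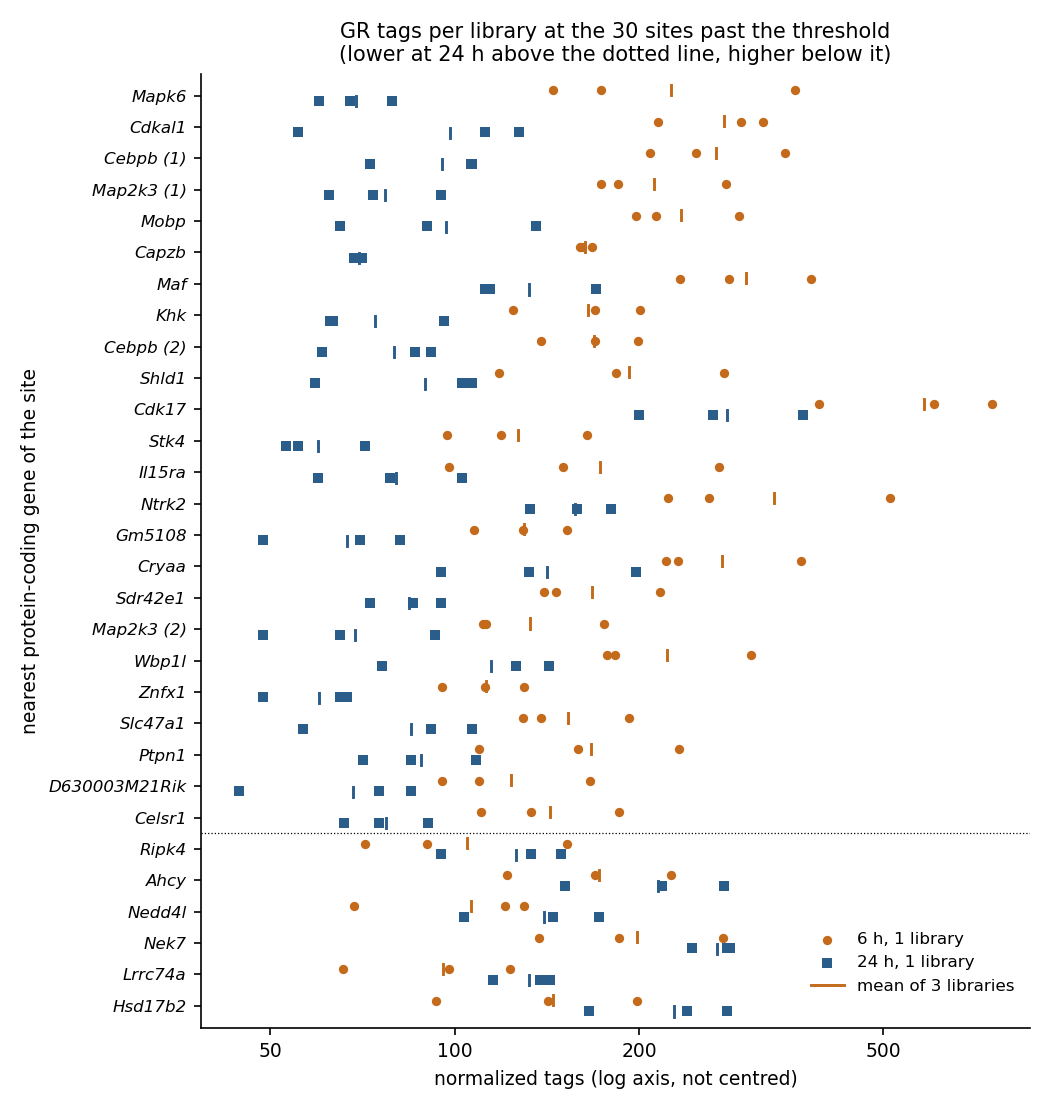
Normalized tags (x axis, log scale, not centred) in each 6 h library (circles) and each 24 h library (squares) at the 30 sites past the threshold, with vertical ticks at the means of 3 libraries; the sites are ordered by log2 difference and named by the nearest gene. In the 24 lower sites the squares lie left of the circles except for an overlap at Il15ra, while in the 6 higher sites circles and squares overlap.

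The interval between Cebpb and Ptpn1 was singled out after its values were seen, because it held 3 lower sites, a site called at 6 h only and the strongest site of the 6 lists. Ptpn1 encodes the phosphatase PTP1B, which dephosphorylates the insulin receptor. The strongest site lay 85985 bp before Ptpn1 (chr2:167844664-167844867) and had 1936.8, 2224.3 and 1500.6 tags at 6 h and 1328, 1678.1 and 2243.3 at 24 h, fully overlapping, with a difference of 0.14 ± 0.16 that did not pass (limma adjusted p = 0.64). At 67.2 kb from it on the Cebpb side (chr2:167777419-167777674), a site had 208.0, 346.5 and 247.4 tags at 6 h and 72.6, 106.2 and 106.8 at 24 h. It differed by -1.21 ± 0.15 (limma adjusted p = 0.0014) and passed in 24 of 25 alternatives.

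Near it, at 63.0 kb from the strongest site (chr2:167781658-167781879), tags were 138.1, 199.2 and 169.4 against 60.7, 91.5 and 86.2. That difference was -0.83 ± 0.17 (limma adjusted p = 0.022). The site called at 6 h only lay 69.3 kb away on the same side, so 3 neighbouring sites were lower or uncalled at 24 h. The third lower site, 13.6 kb away (chr2:167831055-167831294), had 159.1, 232.1 and 109.4 tags against 70.9, 84.8 and 108.4, with a difference of -0.61 ± 0.15 (limma adjusted p = 0.046) and calls in 5 of 23 alternatives. The other 5 sites of the interval called in all 6 lists differed by -0.27 to 0.39 and did not pass. A site 79.5 kb away on the Cebpb side was called in 2 lists of each duration, with means of 68.55 tags at 6 h and 61.55 at 24 h. A site 14.4 kb away on that side was called in 2 lists at 24 h and 0 at 6 h. One 7.9 kb away on the Ptpn1 side was called in 1 list at 6 h and 0 at 24 h.

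**Figure D4:**
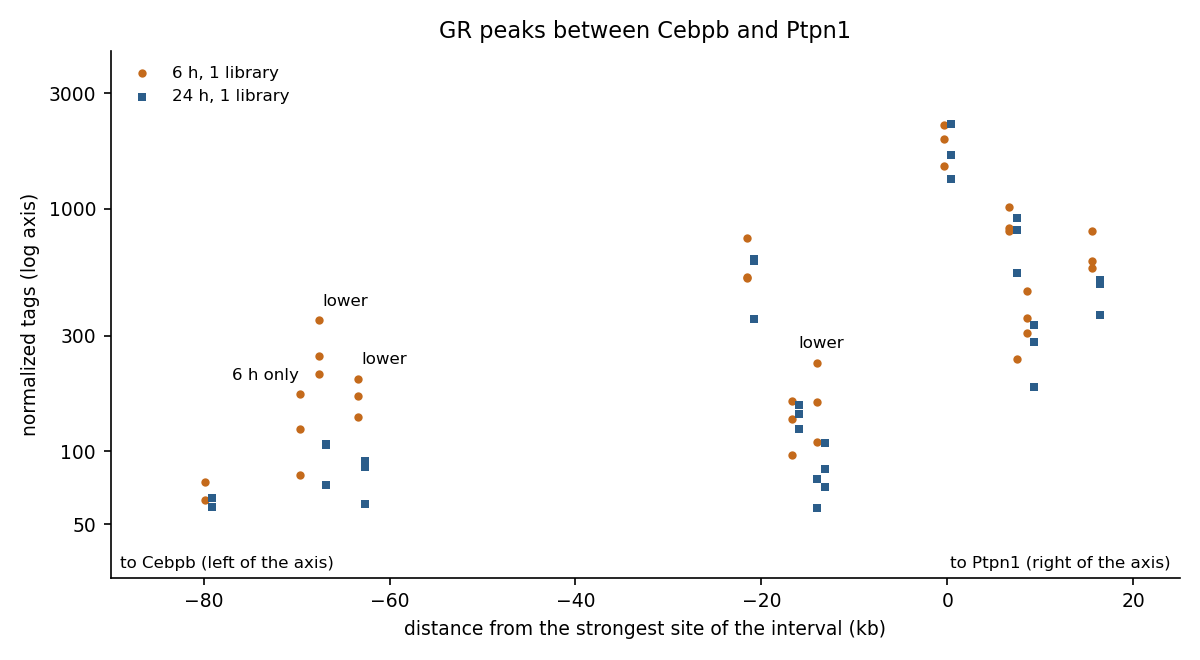
Normalized tags (y axis, log scale) of each 6 h library (circles) and 24 h library (squares) at the GR sites between Cebpb and Ptpn1, placed by distance in kb from the strongest site (x axis). The sites marked lower passed the test, the one marked 6 h only has no 24 h peak, and at the strongest site the libraries of both durations overlap.

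The 6 strongest shared sites showed no difference past the threshold. Besides the site near Ptpn1 these lay in Klf13 (a Krüppel-like factor), near Armc12 and 26820 bp from the start of Fkbp5, in Midn, by Zfp36 (which encodes a protein that destabilizes inflammatory messenger RNAs) and near Usp24. Klf13 had 1871.3, 1919.4 and 1594.8 tags at 6 h and 1122.9, 1574.2 and 1923.7 at 24 h. Zfp36 had 1273.4, 1288.8 and 978.2 against 736.7, 1119.9 and 1155.6. Libraries of the 2 durations overlapped at all 6 sites, with differences of 0.02 to 0.14 after centring and -0.25 to -0.12 without it, so the sign depended on centring.

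Gene groups known for glucocorticoid or hypoxia action were examined through 16 lists, chosen with earlier results of these data known, in which a site counts for its nearest gene within 100 kb. Together they held 101 of the shared sites, of which limma and edgeR each called 2, both near Cebpb (1.98%, beside 3.18% of all 943 sites for limma), and 18 had an unadjusted p below 0.05, beside 189 of the 943. Their median difference was 0.05, beside 0.02 over all 943 sites. Classical glucocorticoid-induced genes had 42 shared sites near 20 of 26 genes, 18 of them with a difference below 0, a median of 0.04 and 2 lower, the Cebpb sites. Acute phase genes (16 sites) and liver transcription factors (6 sites) counted the same 2 Cebpb sites. With the limit at 20 kb no list held a called site.

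The site in Fkbp5, which encodes a chaperone that restrains GR, with the larger tags had 162.6, 265.0 and 158.0 tags at 6 h and 126.5, 197.8 and 223.9 at 24 h. Per1, a clock repressor induced by glucocorticoids, had 534.9, 509.3 and 380.6 against 312.8, 392.1 and 499.1 at its strongest site. Both pairs of groups overlapped, and the differences were 0.17 ± 0.14 and 0.01 ± 0.17. Another Fkbp5 site (chr17:28420224-28420432) had 132.0, 294.5 and 90.4 tags against 218.8, 222.6 and 129.7, which overlap. Its difference of 0.55 ± 0.30, the largest among the GR regulator sites, did not pass (limma adjusted p = 0.30). A weaker Per1 site, 464 bp from the start (chr11:69099301-69099526), had 204.5, 299.7 and 195.1 tags against 102.6, 180.8 and 178.0, which did not overlap, and its difference of -0.35 ± 0.14 did not pass (limma adjusted p = 0.17). The 6 clock sites had a median of -0.20, and 1 of 6 had an unadjusted p below 0.05.

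Among 10 sites of gluconeogenesis, amino acid breakdown and the urea cycle, 7 were below 0 and the median was -0.07. A site 3546 bp from Tat, tyrosine aminotransferase, had the largest difference (-0.39 ± 0.17) with 114.5, 263.3 and 104.7 tags against 65.8, 120.9 and 101.2, which overlap. Cps1, the first enzyme of the urea cycle, had 199.3, 308.3 and 183.6 against 189.7, 272.3 and 262.6. None of the 10 passed, and 3 had an unadjusted p below 0.05. The 5 fatty acid oxidation sites, with the largest difference at Lpin1 (a regulator of fat oxidation, 0.45 ± 0.15), and the 4 lipid droplet and lipid synthesis sites, with the largest near Gpam (an acyltransferase of triglyceride synthesis, -0.21 ± 0.14) and the most tags in Plin4 (a perilipin, -0.13 ± 0.16), held no called site, and 2 of 5 and 0 of 4 had an unadjusted p below 0.05.

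Hypoxia-inducible factor targets and oxygen sensors had 6 shared sites with a median of 0.11, none called and 1 with an unadjusted p below 0.05. Hif3a, a hypoxia-inducible factor subunit, had 708, 729.3 and 648.9 tags at 6 h and 396.5, 622.7 and 777.5 at 24 h, overlapping, and a difference of 0.00 ± 0.18. A site 9826 bp from Bnip3, a mitophagy receptor gene, had 304.2, 327.4 and 154.1 against 217.9, 294.9 and 333.0. Its difference of 0.43 ± 0.18 did not pass (limma adjusted p = 0.19).

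Sites of bile acid, cholesterol and xenobiotic genes (10), insulin and growth factor signalling (14), the cell cycle (8) and GR regulators (3) held no called site either, with medians of 0.07, 0.03, 0.09 and 0.17. In these lists 1, 1, 1 and 0 sites had an unadjusted p below 0.05. The lowest in the cell cycle list was at Sesn1, a stress-induced sestrin (-0.56 ± 0.18, limma adjusted p = 0.11), and that in the insulin list lay 3028 bp from Errfi1, an inhibitor of the EGF receptor (-0.53 ± 0.17, limma adjusted p = 0.11). Marker genes served to relate the sites to the labelled tissue, although GR peaks do not measure expression. Of 8 hepatocyte markers 4 had a site in some list, of 7 endothelial markers 3, of 6 Kupffer cell and leukocyte markers 0 and of 7 stellate and cholangiocyte markers 0. The share of all protein-coding genes with a site was not computed, so these counts do not assign the sites to a cell type. The 4 shared hepatocyte marker sites had a median of 0.34, led by Hnf4a (0.57 ± 0.16, limma adjusted p = 0.069), and the 2 endothelial ones -0.18. None was called, and 2 of the 4 and 1 of the 2 had an unadjusted p below 0.05.

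The position of peaks relative to genes was similar at both durations. Peaks within 1 kb of a protein-coding gene start made up 9.76% ± 1.31 at 6 h and 8.87% ± 0.344 at 24 h (SD, n = 3; exact permutation p = 0.4). For a gene with no known start, either end of the gene counted as a start. Peaks inside a gene made up 53.4% and 53.9% (exact permutation p = 0.8). Of the 30 called sites, 19 lay inside a gene, as did 53.0% of the sites tested, and 3 lay within 1 kb of a start, as did 8.48%. Of these 3, only the Shld1 site lay that near to a known start. The Slc47a1 and Ripk4 sites counted through an end of a gene with no known start.

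On average, lists of the same duration resembled each other somewhat more than lists of different durations when length was equalized. At 1235 peaks a list, the mean Jaccard index (the sites a pair of lists shares, divided by those in either) was 0.732 within and 0.683 between durations. The difference of 0.0490 was the largest of the 10 ways to split 6 libraries into 3 and 3, which gives the smallest possible exact permutation p of 0.1. With the full lists it was 0.00860 (exact permutation p = 0.4). At equal length, pairs of 24 h lists gave 0.746 to 0.780, above the 0.634 to 0.714 of pairs between durations. Pairs of 6 h lists gave 0.655 to 0.762, which overlaps that range.

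The same contrast with PBS could be set beside that with DEX at only 64 sites called in all 12 hypoxia lists, none of them among the 30 called sites. limma found no site at which the 24 h minus 6 h difference differed between DEX and PBS (0 of 64, 0% at adjusted p below 0.05; 5 with an unadjusted p below 0.05; smallest adjusted p = 0.11). With DEX alone 0 of the 64 sites passed and 3 had an unadjusted p below 0.05, and with PBS alone 2 were higher, 2 were lower and 13 had an unadjusted p below 0.05 (smallest limma adjusted p = 0.0018). The median standard error of the interaction was 0.27, against 0.15 for the contrast at the 943 sites. The largest interaction was near Ttpal, where the difference was 0.26 ± 0.22 with DEX and -0.87 ± 0.22 with PBS.

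**Figure D5:**
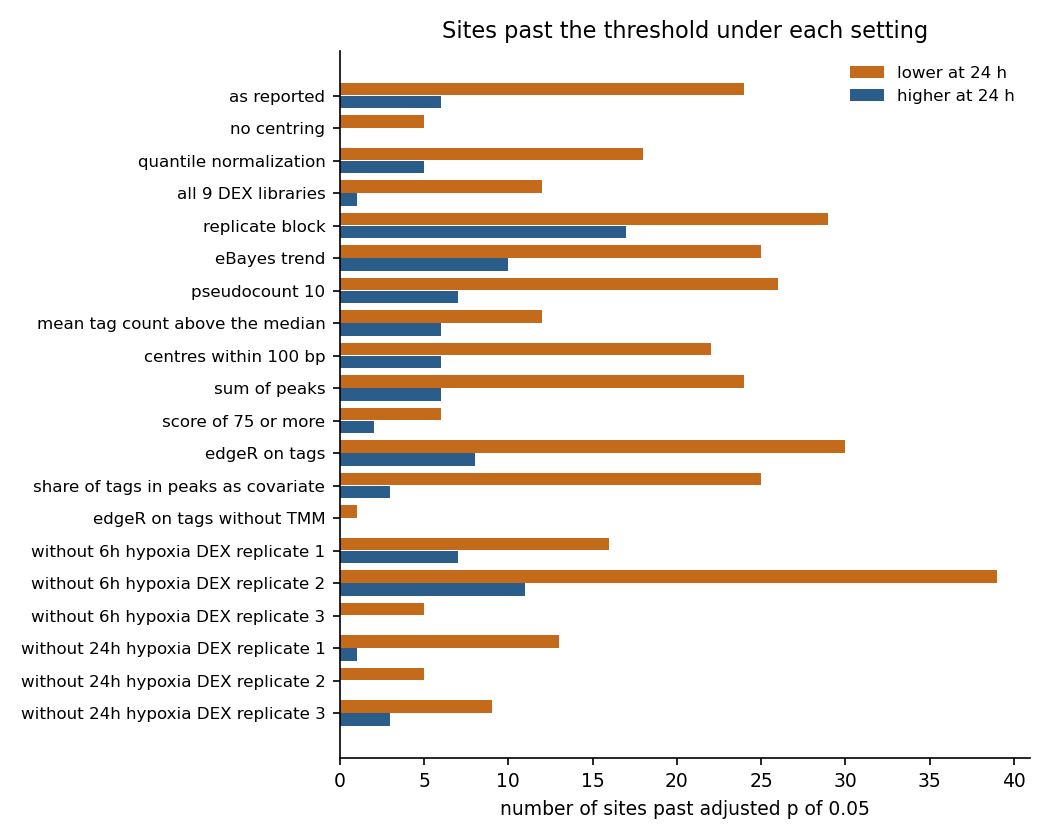
Number of shared sites past an adjusted p of 0.05 (x axis) that were lower or higher at 24 h, for the setting as reported and for the alternatives (y axis; libraries left out are shown for the sites of the remaining lists). The lower sites outnumber the higher ones in each setting drawn, from 1 against 0 with edgeR without TMM to 39 against 11 without 6 h replicate 2.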

How the data were processed

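GR ChIP-seq libraries of mouse liver were grouped by their titles. Per the submitters' processing notes, the tools were Trimmomatic, BWA 0.7.17, SAMtools 1.10 and HOMER, with mm10. Per the file headers, the authors called peaks in each library alone against an input, requiring 4-fold over input and over the local region, Poisson p of 1e-04 and 50 tags. The deposited normalized tag count is a signal scaled by the authors to 10000000 tags, while the minimum of 50 was not scaled, and the smallest normalized tag count listed was 38.8 to 83.2 per library. The deposited total tags are whole-number counts per peak. The deposited peak score ranked and filtered peaks within a list, and the authors' fold over input (a ratio) described them. Each is the authors' own value.

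Peaks of the 6 lists sharing 1 bp were merged, and a site took its highest peak. Log2 normalized tags without pseudocount, centred per library on the median of the shared sites, were fitted with limma 3.58.1 (R 4.3.3), with Benjamini-Hochberg adjustment over 943 sites and a threshold of 0.05. Although counts are deposited, the normalized tag count with limma was kept as the comparison, and edgeR 4.0.16 on the counts is printed beside it. Single values per library used exact two-sided permutation tests. On simulated data for this contrast (943 sites), limma recovered 91% of changes of 0.7 log2 and 100% of 1.3, with 1.21% of unchanged sites called. edgeR recovered 24% and 92%, with 0.808%. The simulated noise was not alike. For limma it was normal on the log2 scale, with a variance taken from the measured sites. For edgeR it was negative binomial with a fixed dispersion, so these shares do not rank the tests. On the measured data limma called 30 sites and edgeR with TMM called 38.

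Named sites were the 12 lower sites with the largest differences and the higher sites past the threshold (filled to 10 with the lowest-p non-overlapping sites). Also chosen were 10 sites called at each duration only, the 6 with most tags, mitochondrial sites and 2 sites per gene list. Not all sites chosen for the gene lists are printed. The other called sites, the promoter and the Cebpb to Ptpn1 sites and the weaker Per1 site were added after their values were seen. Members and lists were chosen with earlier results of these data known. Genes are the nearest of 21900 protein-coding genes of RefSeq GRCm38.p6, with starts known for 17492. For the others, either end of the gene counted as a start in the shares near a start. Selecting sites called in all 6 lists leaves out those lost at 1 duration. PBS libraries at normal oxygen were not used here.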

Additional observations from a re-analysis of the deposited data

How the results depend on the processing

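The called sites at the 943 shared sites (24 lower, 6 higher) were 5 lower and 0 higher without centring, 12 and 1 with all 9 DEX libraries, 12 lower and 6 higher above the median level, 6 and 2 at peak scores of 75 or more, and 1 and 0 with edgeR without TMM, a setting chosen after seeing the data. Higher sites numbered 10 with a variance trend and 3 with the share of tags in peaks as a covariate. Leaving out 1 library gave 5 to 39 lower and 0 to 11 higher sites with the sites of the remaining lists, and 5 to 44 and 0 to 10 at the same 943 sites, where the count without 6 h replicate 3 was 8 lower. Quantile normalization, a pseudocount of 10, merging by centres within 100 bp, summed peaks and edgeR with TMM kept both counts within 1.5 times. Of the 30 sites, 30 remained called with the pseudocount, 28 with edgeR and 5 without centring. Whether replicate numbers pair the samples was not settled. Deviations of same-numbered libraries correlated at 0.01, 0.21 and 0.24, and those of the other pairs at -0.29 to 0.12. The 6 h replicates 2 and 3 correlated best with the same-numbered 24 h library, and 6 h replicate 1 with 24 h replicate 3 (0.11). With the replicate number as a block, 29 sites were lower and 17 higher, the 30 among them, and 1 interaction passed instead of 0. Sites called at 24 h only numbered 5 at the common threshold and 24 at equal list length, against 10. The log2 difference in number of peaks of -0.11 turned to 0.074 without 6 h replicate 1 and to 0.067 without 24 h replicate 1, and ranged from -0.38 to 0.074. Called sites summed over the gene lists were 6 within 100 kb and 0 within 20 kb. The cause was not tested. Depth limits what detection can show: 5772670 tags in the shallowest library, so sites under 83.2 normalized tags there stay uncalled.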

Other observations

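Some patterns outside the comparisons are given as values, each singled out after the data were seen. Chromosome 2 held 9 of the 30 called sites, 8 of them lower, while 8.70% of the 943 sites tested lay on it. A pair of sites of chromosome 8, with other sites between them, differed in opposite directions: the site in Sdr42e1 (chr8:117667443-117667659) was lower by a log2 difference of -0.70 and the site in Hsd17b2 (chr8:117725728-117725933) higher by 0.96.

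Aacs, which encodes acetoacetyl-CoA synthetase, carried a site called at 6 h only (chr5:125498245-125498466; 52.4, 95.3 and 79.9 tags) and another called at 24 h only (chr5:125485171-125485377; 47.9, 71.2 and 48.3 tags). Both were called with DEX at normal oxygen, with 62.2, 67.8 and 72.8 tags at the first and 108.5 and 52.5 in 2 of 3 libraries at the second. Pemt, the liver enzyme that methylates phosphatidylethanolamine, had a promoter site in all 6 lists with a difference of -0.05 ± 0.14 (log2, SE) and a second site, inside the gene, called at 6 h only with 51.6, 112.6 and 56.1 tags.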
